A study of Mus musculus with 6 samples.

Results

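The subject is a set of 32 genes of sterol and fatty acid synthesis, with the genes that regulate them and export the product, in mouse endothelial cells made to express more RBPMS. The members were taken by gene name from the 54532 genes of the count table. They comprise 18 enzymes of the sterol pathway, 5 enzymes of fatty acid synthesis, 6 genes grouped as SREBP regulators and 3 grouped as efflux genes. The SREBP regulators include the SREBP transcription factor genes Srebf1 and Srebf2 and the cholesterol carrier gene Stard4. The efflux genes include the receptor gene Nr1h2 beside the exporter genes Abca1 and Abcg1. Endothelial cells, which line blood vessels, were cultured in a complete medium made for them, with fetal bovine serum. They received a lentivirus for 72 h that either overexpressed RBPMS (RBPMS group, n = 3) or carried an empty vector (control group, n = 3), so both groups were transduced. The series places the cells in a study of RBPMS in heart failure during aging. The sources used here do not give strain, age, vessel bed or whether the cells are a line or a primary culture. RBPMS is an RNA-binding protein that takes part in splicing.

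Cells build cholesterol from acetyl-CoA through mevalonate, squalene and lanosterol, and fatty acids from the same precursor through malonyl-CoA. When membrane sterol is low, SCAP escorts the SREBP proteins from the endoplasmic reticulum to the Golgi, where they are cut to release active transcription factors for both pathways. When sterol is plentiful, INSIG proteins hold SCAP back, and oxysterols activate the liver X receptors (LXR), which raise the cholesterol exporters ABCA1 and ABCG1. Endothelial cells in culture take cholesterol from serum lipoproteins as well as making it.

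Levels are TMM-scaled CPM (each library's counts brought to a common total), and fold changes are RBPMS over control on the log2 scale, with their standard error (SE). Total counts were 20453643, 21492957 and 18199702 in the RBPMS libraries and 15779567, 16229564 and 23076124 in control replicates 1 to 3. Rbpms itself had 130.7, 147.5 and 133.1 CPM in RBPMS libraries, against 57.1, 56.8 and 55.2 CPM in controls, and all RBPMS libraries lay above all controls (p = 0.1, two-sided exact permutation test, the smallest p possible with n = 3 each). Control replicate 3 stood apart: the correlation of log2 CPM across genes was 0.954 to 0.960 between it and each other library, and 0.991 to 0.995 between any other pair. Results are therefore given from 5 libraries, without it, and from all 6. The 10 endothelial markers summed to 18612, 17658 and 17834 CPM in RBPMS libraries, against 19872, 20599 and 16073 CPM in control replicates 1 to 3. The sums of all RBPMS libraries thus lay below control replicates 1 and 2 and above control replicate 3, but single markers went both ways. Vwf, the most abundant, had 6051, 5439 and 5542 CPM in RBPMS libraries, against 7745, 7824 and 3692 CPM in controls. Kdr and Esam also lay below control replicates 1 and 2, Pecam1, Cdh5 and Erg lay above them, and the other markers overlapped them. The part of these differences in the lipid gene values was not tested. Fibroblast, mural, mesothelial, epithelial, cardiomyocyte, adipocyte and hepatocyte lists each summed to at most 27.5 CPM in any library. The labels do not say whether replicates were separate cultures, so each p-value reflects the spread of these libraries alone and that spread may be technical.

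As a whole, the lipid genes showed little change with RBPMS. Over all 6 libraries the edgeR quasi-likelihood test called 0 of the 32 members at an adjusted p under 0.05. It called 0 of all 13898 genes (0%), and before adjustment 1050 genes and 0 members had a p under 0.05. Even the overexpressed gene Rbpms was not called there (log2 fold change 1.28, adjusted p = 0.0606). The absence of calls from 6 libraries therefore does not show an absence of change. DESeq2 called 56 genes, 0 of them members, and limma-voom 0 genes. From 5 libraries the same test called 1 member, Nr1h2, as higher (3.13% of 32) and 0 as lower. Across all 14123 genes 7.24% were called, 3.81% as higher and 3.43% as lower, so the share of members called was no larger than the share of all genes. At an unadjusted p under 0.05 there were 8 members (25%), against 20.9% of all genes. All 8 had a positive fold change: Hmgcs1, Mvd, Msmo1, Insig1, Fasn, Nr1h2, Abca1 and Abcg1. The 20.9% covers both directions, and the share of all genes with such a p and a positive fold change was not computed. For Hmgcs1, Msmo1 and Nr1h2 all RBPMS libraries lay below control replicate 3. In a culture, fewer cells of one kind and less RNA per cell cannot be told apart.

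From 5 libraries the median log2 fold change was 0.03 for the sterol enzymes, 0.02 for the SREBP regulators, -0.02 for the fatty acid enzymes and 0.20 for the 3 efflux genes. The median over all genes tested was -0.0025. Of the 32 members 21 had a positive and 11 a negative fold change. Over all 6 libraries these medians were -0.0020, 0.10, 0.14 and 0.40, beside -0.0083 over all genes, with 20 members positive and 12 negative. The 95% intervals from 5 libraries excluded a change of 1.5-fold or more in either direction for 31 of the 32 members, the exception being the scarcely counted Fdps, and a change of 2-fold or more for all 32. From all 6 libraries they did so for 20 and 28 members, as the intervals were wider, with a median half-width of 0.37 against 0.15 from 5 libraries. These bounds hold for the spread of the libraries used, which may be technical, and the narrower ones leave out control replicate 3.

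The RBPMS libraries lay above all 3 controls for 6 members (Mvd, Sc5d, Insig1, Fasn, Abca1 and Abcg1), where 12.2% of all genes did so, and below them for 1 member (Insig2), where 12.5% of all genes did so. With control replicates 1 and 2 alone they lay above for 10 members (31.25%), where 18.3% of all genes did so, and below for 2 members, Insig2 and Acly, where 19% did so. These separations were the same with DESeq2 size factors. With levels scaled by total count they were the same apart from Hmgcs1, whose groups then overlapped in 5 libraries as well.

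**Figure D1:**
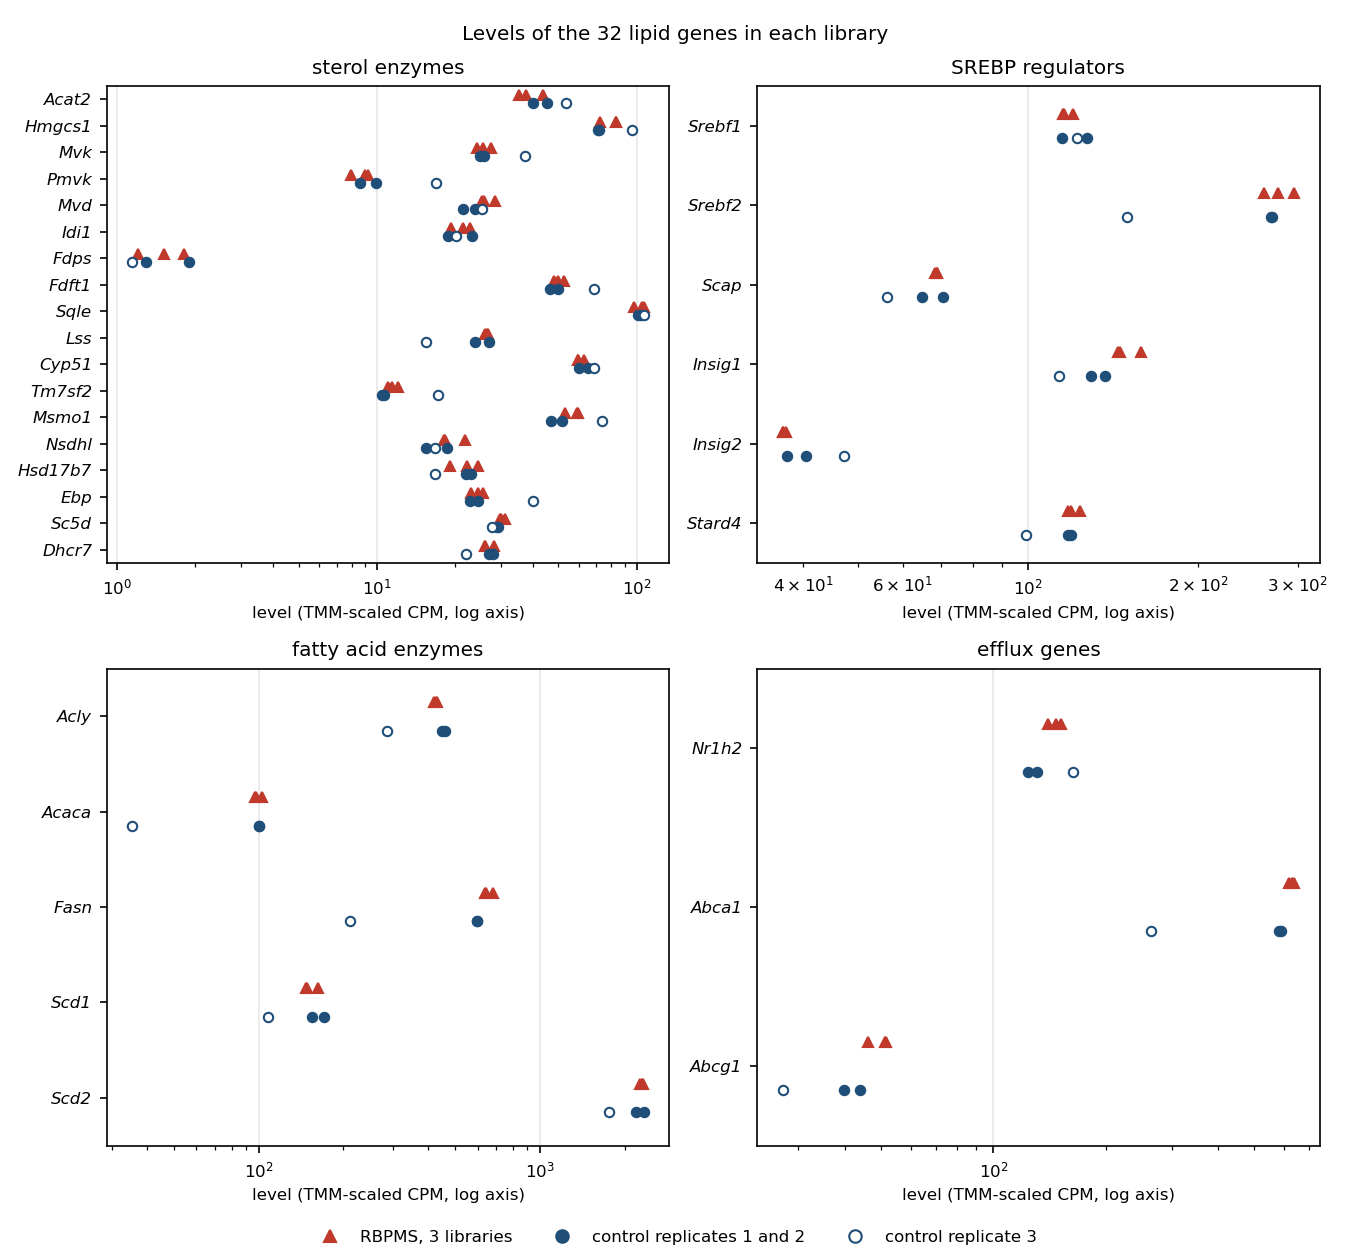
Level of each of the 32 lipid genes in every library, in TMM-scaled CPM on a log axis, with RBPMS libraries as triangles, control replicates 1 and 2 as filled circles and control replicate 3 as an open circle. Most triangles lie among the filled circles, and the open circle lies far below the other libraries for Acaca, Fasn, Abca1 and Srebf2. The triangles lie above the filled circles for 10 of the 32 genes, the 3 efflux genes among them.

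**Figure D2:**
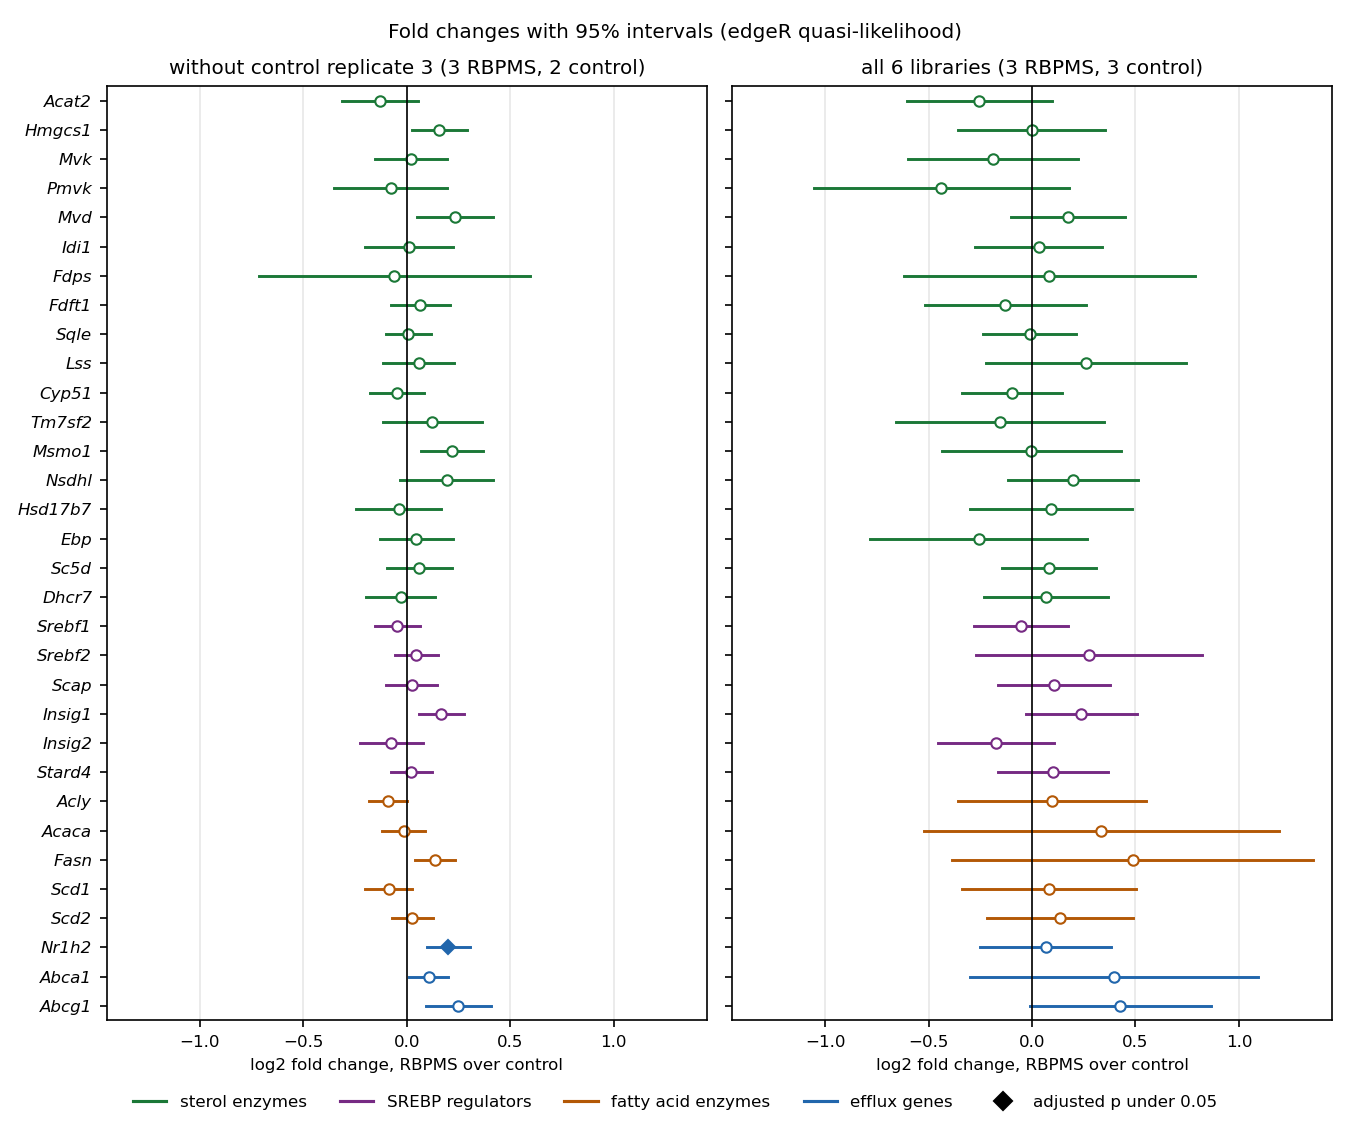
Log2 fold change of RBPMS over control for each gene with its 95% interval (edgeR quasi-likelihood), without control replicate 3 on the left and over all 6 libraries on the right, coloured by gene group. The diamond marks the only called gene, Nr1h2, and the intervals on the right are wider, most of all for Fasn, Acaca and Abca1.

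The sequence just upstream of some of these genes shows the kinds of site through which sterol control is known to act. Each run is given 5′ to 3′ on the strand of its gene, from RefSeq (GRCm38.p6), with matches in capitals, and ends before the RefSeq start or before the start of the deposited gene where that comes first. The motifs searched on both strands were TCACNCCAC (the core of a sterol regulatory element), TCACGTGA (an E-box that SREBP can bind), CCAAT (the box of NF-Y) and GGGCGG (the box of Sp1), the last 2 factors being known partners of SREBP. Hmgcs1, a textbook SREBP target, is shown because it held the only match to the sterol element among members with a RefSeq sequence. Insig1 and Abca1 stand for the feedback arm and the efflux arm, and Nr1h2 is the called gene. The Hmgcs1 run is chr13:119690101-119690350 on the plus strand, that of Insig1 is chr5:28071162-28071362 on the plus strand, that of Abca1 is chr4:53159896-53160145 on the minus strand, and that of Nr1h2 is chr7:44553966-44554215 on the minus strand.
Hmgcs1: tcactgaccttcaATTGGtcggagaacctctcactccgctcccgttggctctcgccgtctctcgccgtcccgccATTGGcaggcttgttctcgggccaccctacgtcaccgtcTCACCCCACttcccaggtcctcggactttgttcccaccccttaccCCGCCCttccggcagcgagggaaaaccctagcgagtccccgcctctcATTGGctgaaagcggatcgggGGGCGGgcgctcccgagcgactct
Insig1: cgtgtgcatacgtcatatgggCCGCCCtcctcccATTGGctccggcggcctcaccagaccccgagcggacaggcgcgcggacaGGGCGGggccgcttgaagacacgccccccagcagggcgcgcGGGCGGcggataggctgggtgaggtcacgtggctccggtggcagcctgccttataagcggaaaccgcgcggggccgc
Abca1: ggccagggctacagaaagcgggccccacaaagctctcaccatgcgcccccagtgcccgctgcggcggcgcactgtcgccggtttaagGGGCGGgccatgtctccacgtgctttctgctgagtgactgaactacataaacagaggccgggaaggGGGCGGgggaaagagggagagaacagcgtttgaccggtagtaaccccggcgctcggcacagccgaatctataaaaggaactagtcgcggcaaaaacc
Nr1h2: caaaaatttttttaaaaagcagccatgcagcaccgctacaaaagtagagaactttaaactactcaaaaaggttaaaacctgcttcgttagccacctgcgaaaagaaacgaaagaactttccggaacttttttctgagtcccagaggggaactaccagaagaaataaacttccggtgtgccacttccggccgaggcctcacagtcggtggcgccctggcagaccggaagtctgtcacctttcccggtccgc
The capitals in Hmgcs1 mark 3 NF-Y boxes, all read on the opposite strand, the sterol element TCACCCCAC whose first base lies 137 bases before the RefSeq start, and 2 Sp1 boxes. In Insig1 they mark 1 NF-Y box and 3 Sp1 boxes, in Abca1 they mark 2 Sp1 boxes, and the Nr1h2 run held 0 matches. Sites for LXR were not searched for, so the lower-case letters do not show that a run lacks them.

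Promoter sequences were at hand for 25 of the 32 members, with 33 RefSeq starts among them. For members and for all genes, a gene was counted where the run before any of its starts held a match. In the 250 bases before a start, 19 of these 25 (76%) held CCAAT, against 40.9% of the 9792 tested genes with a sequence, and 21 (84%) held GGGCGG, against 63.6%. The sterol element was in 1 of 25 (4%), against 1.23%, and the E-box in 0 of 25, against 1.80%. No match overlapped a match to another motif. A match is a description of letters in a window and no evidence of binding.

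The efflux genes gave the one call. Nr1h2 (ENSMUSG00000060601, mm10 chr7:44549616-44553951, minus strand) encodes LXR beta, the sterol-sensing nuclear receptor that is expressed in most tissues. It had 147.2, 151.5 and 139.6 CPM in RBPMS libraries, against 123.6, 131.0 and 163.8 CPM in control replicates 1 to 3. All RBPMS libraries lay above control replicates 1 and 2 and below control replicate 3. From 5 libraries Nr1h2 rose 1.15-fold (log2 fold change 0.20 ± 0.050, 95% interval 0.10 to 0.31, adjusted p = 0.0175), and over all 6 libraries its log2 fold change was 0.07 ± 0.13 (adjusted p = 0.808). The 5-library call was lost when control replicate 1 (0.16, adjusted p = 0.232), RBPMS replicate 1 (0.20, adjusted p = 0.0745) or RBPMS replicate 2 (0.17, adjusted p = 0.0730) was also left out, and over all 6 libraries the fold change was -0.02 without control replicate 1.

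Abca1 and Abcg1 encode the transporters that load cholesterol onto lipid-poor apolipoprotein A-I and onto HDL, and both are known LXR targets. Abcg1 (mm10 chr17:31057698-31115777, plus strand) had 51.7, 51.3 and 46.0 CPM in RBPMS libraries, against 39.9, 43.9 and 27.3 CPM in controls. All RBPMS libraries lay above all controls, and the log2 fold change was 0.25 ± 0.075 from 5 libraries, with an adjusted p of 0.0501 that just missed the threshold, and 0.43 ± 0.18 from 6 (adjusted p = 0.587). Abca1 (mm10 chr4:53030787-53159895, minus strand) had 638.7, 619.2 and 631.9 CPM in RBPMS libraries, against 583.2, 588.6 and 263.8 CPM in controls. The groups again did not overlap, but the log2 fold change of 0.11 ± 0.045 from 5 libraries (adjusted p = 0.169) was smaller than the 0.40 ± 0.29 from 6 (adjusted p = 0.599), since control replicate 3 was far below the other controls (log2 ratio -1.15). Summed over the 3 genes, levels were 837.5, 821.9 and 817.5 CPM in RBPMS libraries, against 746.7, 763.6 and 454.9 CPM in controls. Among the 6 leukocyte markers only Cd68 had more than trace levels. Cd68 had 53.3, 58.3 and 54.8 CPM in RBPMS libraries, against 41.4, 46.5 and 41.7 CPM in controls (log2 fold change 0.34, adjusted p = 0.0054 from 5 libraries). The whole list of 6 summed to 53.3 to 58.5 CPM in RBPMS libraries and 41.4 to 46.6 CPM in controls, Adgre1 and Cd3e had 0 counts in every library, and Ptprc, Csf1r and Itgam reached at most 0.164 CPM. The part of leukocytes in the efflux values was not tested.

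**Figure D3:**
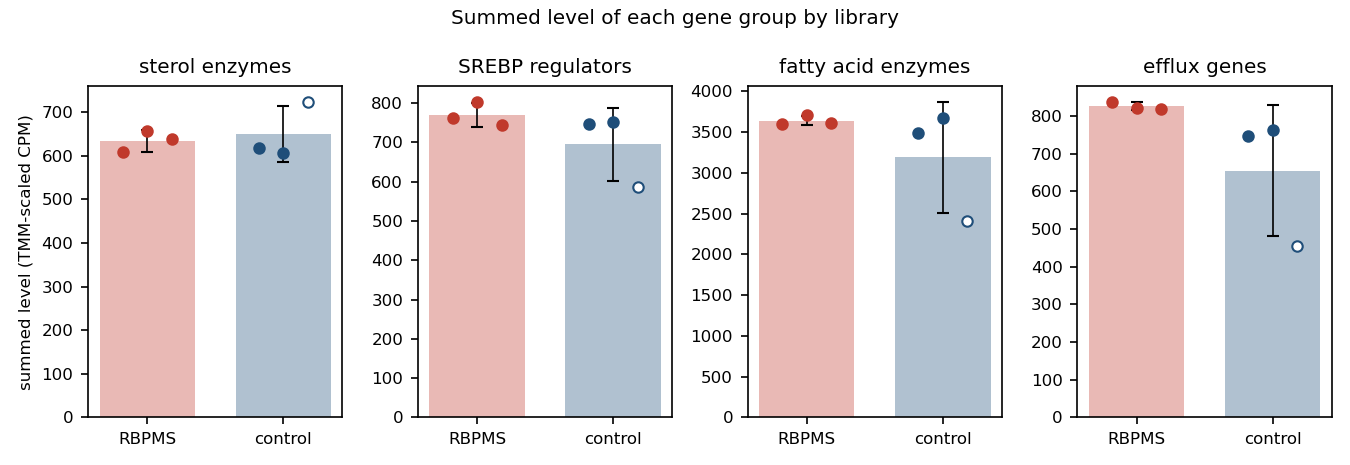
Summed level of each gene group in TMM-scaled CPM, with bars for the mean, error bars for the SD (n = 3 each) and a point per library, control replicate 3 being the open point. The RBPMS points lie above all control points for the efflux genes only, and the open point is the lowest control in every group but the sterol enzymes.

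Of the SREBP regulators 0 of 6 were called, and the transcription factor genes themselves hardly differed. Srebf1, whose products act mainly on fatty acid genes, had 115.7, 120.2 and 115.2 CPM in RBPMS libraries, against 115.0, 126.9 and 122.0 CPM in controls (5-library log2 fold change -0.05 ± 0.052, 95% interval -0.15 to 0.06). Srebf2, which acts mainly on sterol genes, had 276.5, 295.5 and 261.6 CPM in RBPMS libraries, against 269.3, 269.7 and 149.8 CPM in controls. Its log2 fold change was 0.05 ± 0.050 (95% interval -0.06 to 0.15) from 5 libraries and 0.28 ± 0.23 from 6 (adjusted p = 0.612), the gap coming with the low value in control replicate 3. Scap, the escort, stayed between 68.3 and 69.0 CPM in RBPMS libraries and between 56.3 and 70.5 CPM in controls, and the cholesterol carrier gene Stard4 between 117.6 and 123.3 CPM in RBPMS libraries and between 98.9 and 119.2 CPM in controls. Their 5-library log2 fold changes were both 0.02.

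The INSIG genes, which encode the anchors of SCAP, lay on opposite sides of the controls. Insig1 (ENSMUSG00000045294, mm10 chr5:28071363-28078662, plus strand), itself an SREBP target, had 144.2, 158.5 and 145.1 CPM in RBPMS libraries, against 137.0, 129.2 and 113.5 CPM in controls. All RBPMS libraries lay above all controls, with a log2 fold change of 0.17 ± 0.052 from 5 libraries (95% interval 0.06 to 0.28) that just missed the threshold (adjusted p = 0.0554), and 0.24 ± 0.11 from 6 (adjusted p = 0.587). Insig2 had 36.9, 36.8 and 37.3 CPM in RBPMS libraries, against 40.5, 37.5 and 47.1 CPM in controls, and its log2 fold change was -0.07 ± 0.074 from 5 libraries (adjusted p = 0.632) and -0.17 ± 0.12 from 6 (adjusted p = 0.591). Per kilobase of gene length, the ratio of Insig1 to Insig2 was 4.53 ± 0.264 in RBPMS libraries and 3.46 ± 0.655 in controls (SD, n = 3 each), with no overlap (p = 0.1, two-sided exact permutation test, the smallest possible). The ratio of Srebf2 to Srebf1 was 1.86 ± 0.0737 in RBPMS libraries and 1.49 ± 0.464 in controls (SD, n = 3 each, p = 0.2, same exact test), and 3 such ratios were computed in all. Control replicate 3 lowered both control means. For Insig1 to Insig2, controls had 3.80, 3.87 and 2.70, and RBPMS libraries lay above all of them, at 4.37 to 4.84. For Srebf2 to Srebf1, controls had 1.84, 1.67 and 0.963, and RBPMS libraries, at 1.78 to 1.93, overlapped control replicates 1 and 2.

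None of the 18 sterol enzyme genes was called from 5 or from 6 libraries, and their 5-library log2 fold changes ran from -0.13 to 0.23, 12 of them positive. In the steps up to mevalonate and its activated isoprene unit, Hmgcs1, the HMG-CoA synthase gene, had 72.2, 83.7 and 83.2 CPM in RBPMS libraries, against 71.8, 71.3 and 96.1 CPM in controls. The RBPMS libraries lay just above control replicates 1 and 2 and below control replicate 3, with a log2 fold change of 0.16 ± 0.064 from 5 libraries (adjusted p = 0.155) and close to 0 from 6 (adjusted p = 0.997). Mvd, which encodes the decarboxylase that ends the mevalonate steps, had 25.4, 28.6 and 25.9 CPM in RBPMS libraries, against 21.4, 23.9 and 25.4 CPM in controls (0.23 ± 0.088 from 5 libraries, adjusted p = 0.118, and 0.17 ± 0.12 from 6, adjusted p = 0.59). Its lowest RBPMS library and control replicate 3 were nearly equal. The thiolase gene Acat2 had the lowest 5-library value of the group, -0.13 ± 0.088 (adjusted p = 0.446). The kinase genes Mvk and Pmvk and the isomerase gene Idi1 had 0.02, -0.08 and 0.01. Acat2 shared 43.8% of its 31-base runs with Acat3, and Idi1 shared 18.4% with Gm13502, so both levels are uncertain. Few counts were assigned to the sharing genes over the 6 libraries: 96 to Acat3, against 4931 to Acat2, and 52 to Gm13502, against 2403 to Idi1. From 6 libraries Pmvk was at -0.44 (adjusted p = 0.587), with 7.95 to 9.25 CPM in RBPMS libraries and 8.58 to 16.8 CPM in controls, the highest of these being control replicate 3.

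Among the genes from farnesyl pyrophosphate to lanosterol, Fdft1 (squalene synthase), Sqle (squalene epoxidase) and Lss (lanosterol synthase) had 5-library log2 fold changes of 0.07, 0.01 and 0.06. Sqle, a regulated step of the pathway, was flat: it had 97.9, 106.5 and 104.8 CPM in RBPMS libraries, against 104.0, 101.2 and 106.6 CPM in controls, and its 95% interval was -0.10 to 0.12. Fdps, the farnesyl pyrophosphate synthase gene, had only 31, 39 and 22 counts in RBPMS libraries, against 30, 21 and 26 in controls, the lowest level per kilobase of all members (0.359 CPM per kb in RBPMS libraries, 0.378 in control replicates 1 and 2). Of its transcript sequence, read as runs of 31 bases, 27.9% also occurred in other genes, so its low count is uncertain, as reads could be split between copies. The gene sharing most, Gm43738 (24.6%), was however assigned 0 counts in the 6 libraries. The 95% interval of Fdps was -0.72 to 0.60, so a change within those bounds was not excluded at this depth. Fdft1 is uncertain for another reason: 18.3% of its exon bases overlap Ctsb on the opposite strand, and the sources used here do not say whether the counting used strand.

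Past lanosterol, Msmo1, which encodes the methylsterol oxidase of the demethylation steps, came nearest to the threshold. It had 52.9, 59.5 and 59.1 CPM in RBPMS libraries, against 51.7, 46.7 and 73.4 CPM in controls. All RBPMS libraries lay above control replicates 1 and 2 and below control replicate 3, and the log2 fold change was 0.22 ± 0.072 from 5 libraries (adjusted p = 0.0722) and close to 0 from 6 (adjusted p = 0.994). Its partners in demethylation, Nsdhl and Hsd17b7, had 0.19 (adjusted p = 0.334) and -0.04 (adjusted p = 0.873). Cyp51, the lanosterol demethylase gene, had -0.05, the sterol reductase gene Tm7sf2 0.12, the isomerase gene Ebp 0.05, the desaturase gene Sc5d 0.06, and Dhcr7, whose product makes cholesterol in the last step, -0.03, with adjusted p-values from 0.606 to 0.886. The group sum was 607.8, 656.4 and 638.3 CPM in RBPMS libraries, against 618.7, 605.6 and 723.7 CPM in controls, so the groups overlapped. Tm7sf2 overlaps Vps51 on the same strand over 12.1% of its exon bases, and is uncertain too.

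The fatty acid enzymes held the most abundant member, and 0 of 5 were called. Scd2, a stearoyl-CoA desaturase gene, had 2277, 2329 and 2311 CPM in RBPMS libraries, against 2191, 2340 and 1767 CPM in controls (5-library log2 fold change 0.03 ± 0.048, 95% interval -0.07 to 0.13). Per kilobase it stood at 423 CPM in RBPMS libraries and 415 CPM in control replicates 1 and 2, ahead of Acly at 80.6 and 85.9 CPM per kb. Its relative Scd1 had a log2 fold change of -0.09 ± 0.054 (adjusted p = 0.385), and the ratio of Scd2 to Scd1 per kilobase was 13.4 ± 0.635 in RBPMS libraries and 13.1 ± 1.24 in controls (SD, n = 3 each, p = 0.7, two-sided exact permutation test). Scd1 and Scd2 shared 5.84% and 4.83% of their 31-base runs with Scd3.

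Fasn, the fatty acid synthase gene (mm10 chr11:120805846-120824547, minus strand), had 644.9, 683.0 and 638.6 CPM in RBPMS libraries, against 597.9, 595.7 and 211.0 CPM in controls. All RBPMS libraries lay above all controls. The log2 fold change was 0.14 ± 0.046 from 5 libraries (adjusted p = 0.0803) and 0.49 ± 0.37 from 6 (adjusted p = 0.602). Acly, whose product supplies cytosolic acetyl-CoA to both pathways, went the other way in 5 libraries. It had 426.4, 429.4 and 420.8 CPM in RBPMS libraries, against 447.1, 460.0 and 285.4 CPM in controls, giving -0.09 ± 0.044 from 5 libraries (adjusted p = 0.25) and 0.10 from 6 (adjusted p = 0.804). Acaca, the acetyl-CoA carboxylase gene that makes malonyl-CoA, had 102.5, 97.6 and 97.0 CPM in RBPMS libraries, against 100.1, 100.3 and 35.5 CPM in controls. Without control replicate 3 its log2 fold change was -0.02 (95% interval -0.12 to 0.09), and with it 0.33 ± 0.36 (95% interval -0.52 to 1.19). Acaca shared 31.7% of its 31-base runs with the gene Gm5182, to which 2388 counts were assigned, so its level is uncertain.

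Control replicate 3, which only the 6-library values include, differed from the other controls partly by gene length. In control replicate 3 the log2 ratio of a member's level to the mean of control replicates 1 and 2 had a median of 0.15 for the sterol enzymes (11 of 18 above 0), -0.24 for the SREBP regulators (2 of 6), -0.67 for the fatty acid enzymes (0 of 5) and -0.62 for the efflux genes (1 of 3). Across the 32 members, which share that 1 library, this ratio had a Spearman correlation of -0.605 with gene length. The lowest ratios were those of Fasn and Acaca (-1.50 each), whose deposited lengths are 10947 and 17074 bases, and the highest was that of Pmvk (0.86), at 1713 bases. Over all genes the median log2 difference of this library was 0.60 in the shortest quintile and -0.53 in the longest. Some members departed from their length quintile. Tm7sf2 (0.70) and Msmo1 (0.58) lay above 0, where their quintile had a median of -0.20. Abcg1 was at -0.62, where its quintile had 0.03. Gene length was also tried as an offset, described with the other settings. It brought the 6-library medians nearer to the 5-library ones for SREBP regulators, fatty acid enzymes and efflux genes. For the sterol enzymes it did not (-0.079, against 0.033 from 5 libraries).

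**Figure D4:**
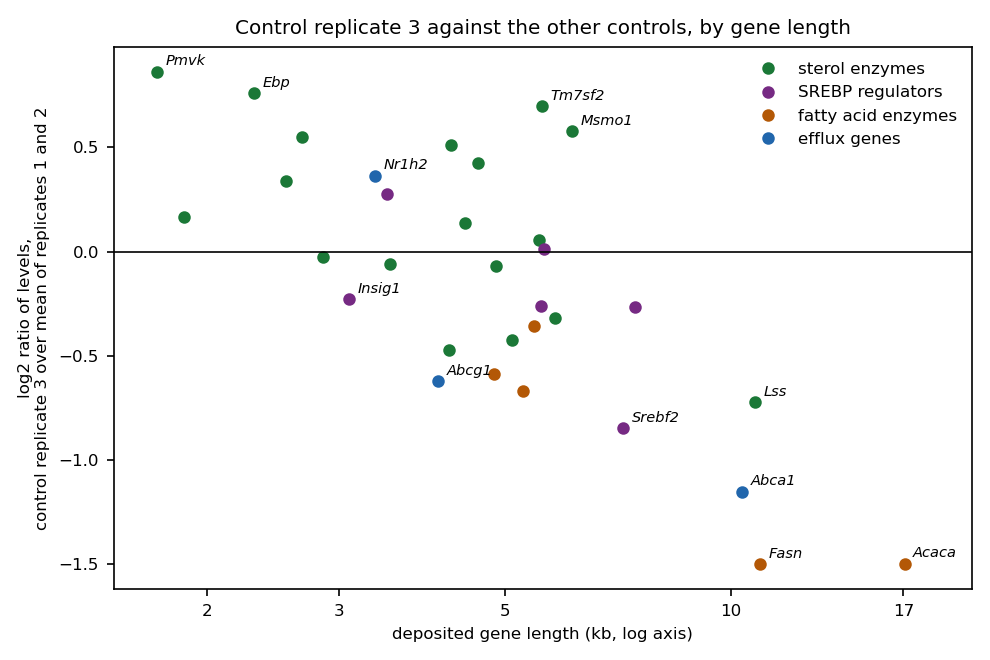
Log2 ratio of the level in control replicate 3 to the mean of control replicates 1 and 2, against deposited gene length in kilobases on a log axis, with 1 point per lipid gene coloured by group. Short genes such as Pmvk and Ebp lie above 0, and the long genes Abca1, Fasn and Acaca lie lowest.

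Other genes of the same pathways were looked at as 4 lists, of which 75 of 85 genes could be tested. From 5 libraries 7 were called (9.33%, beside 7.24% of all genes), 4 higher (5.33%, beside 3.81%) and 3 lower (beside 3.43%), so the shares lay near those over all genes. From 6 libraries 0 were called, with 3 at an unadjusted p under 0.05. In the list of other sterol and isoprenoid genes 0 of 22 were called. Their median log2 fold change from 5 libraries was 0.03, with 14 positive and 8 negative.

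In the list of SREBP processing and turnover, 1 of 15 rose and 3 fell (26.7% called, beside 7.24% of all genes). Sec24a, which encodes a coat protein of the vesicles that leave the endoplasmic reticulum, rose (0.23 ± 0.068, adjusted p = 0.0427). The genes that fell encode proteins of the endoplasmic reticulum. Erlin2, which takes part in the degradation of proteins of that membrane, had 57.9, 61.7 and 60.5 CPM in RBPMS libraries, against 73.0, 75.7 and 64.6 CPM in controls, with no overlap (-0.31 ± 0.059, adjusted p = 0.0023). The chaperone gene Hsp90b1 had a log2 fold change of -0.19 ± 0.046 (adjusted p = 0.0123), and Rnf145, which encodes a sterol-responsive ubiquitin ligase, -0.17 ± 0.047 (adjusted p = 0.0276).

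Among other fatty acid synthesis genes 2 of 29 rose (6.90%, beside 3.81% of all genes) and 0 fell. Elovl1, an elongase gene for very long chains, had 94.6, 98.4 and 92.7 CPM in RBPMS libraries, against 75.9, 78.7 and 90.9 CPM in controls (0.30 ± 0.053, adjusted p = 0.0011). Mlxip, which encodes a glucose-sensing transcription factor, had 64.7, 64.0 and 62.2 CPM in RBPMS libraries, against 52.6, 49.5 and 24.9 CPM in controls (0.32 ± 0.063, adjusted p = 0.0028). In the list of other LXR and efflux genes 1 of 9 rose (11.1%, beside 3.81% of all genes) and 0 fell: Scarb1, the HDL receptor gene, had 58.6, 62.4 and 58.1 CPM in RBPMS libraries, against 48.4, 49.7 and 44.3 CPM in controls (0.28 ± 0.065, adjusted p = 0.0093). For these 3 genes, as for Sec24a, Erlin2 and Hsp90b1, the groups did not overlap over all 6 libraries, while those of Rnf145 did. None of the 7 passed the 6-library test, where their log2 fold changes had the same signs, from -0.36 for Hsp90b1 to 0.59 for Mlxip.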

How the data were processed

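RNA of 6 samples was measured by RNA-seq after Trizol extraction, ribosomal RNA removal and NEB library preparation, per the labels' protocols. The authors deposited a table of whole-number counts per gene. Per the submitters' processing notes they used FastQC, Salmon and the mm10 build. The sources used here do not say how Salmon estimates became whole counts or whether strand was used. All 32 members were tested in each fit.

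Counts were tested as deposited in R 4.3.3 with edgeR 4.0.16 quasi-likelihood (filterByExpr, TMM, group as the only term, Benjamini-Hochberg adjustment over all genes tested, threshold 0.05). SE was the log2 fold change divided by the square root of its F. DESeq2 1.42.0 and limma 3.58.1 were alternatives. Single values were compared by exact two-sided permutation tests. The test was tried on simulated counts. Shared sequence and exon overlap were computed from GENCODE M21. Figures were drawn with matplotlib 3.10.9.

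The members and lists were chosen with earlier results of these data known. All members may be named, and of the other pathway genes at most 8 called ones with the smallest p.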

Additional observations from a re-analysis of the deposited data

How the results depend on the processing

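The Nr1h2 call from 5 libraries held in all 9 settings other than leaving out a further library. The count of members called, 1 from 5 libraries, was 2 with the replicate number as a block (Nr1h2, Abcg1), with the DESeq2 Wald test (Fasn, Nr1h2) and with limma-voom (Nr1h2, Abcg1), and 5 without a filter on low counts (Msmo1, Insig1, Fasn, Nr1h2, Abcg1). It was 0 to 4 when 1 more library was left out. Over all 6 libraries it stayed at 0 in those 9 settings and was 0 to 1 when a library was left out, 1 being without control replicate 3, where 7 pathway genes were also called and the Rbpms log2 fold change was 1.27. Same-numbered libraries deviated from their group means with correlations of 0.050, -0.025 and 0.013, so the numbers were not taken to pair the samples. The block gave 917 calls over all genes, against 1022.

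With a gene length trend as offset, the 6-library median was -0.079 for sterol enzymes, -0.0044 for SREBP regulators, 0.063 for fatty acid enzymes and 0.25 for efflux genes, the 5-library median of fatty acid enzymes was -0.047, and the 6-library fold changes of Dhcr7 and Scap were -0.017 and -0.031. Some members near 0 over 6 libraries changed sign: Hmgcs1, at -0.0011, was 0.010 with the block, 0.0072 with total library size, 0.0030 with a filter of 1 CPM in 3 libraries, 0.012 with limma-voom and 0.0015 without the most abundant genes, and Msmo1, at -0.0030, was 0.023 with the block, 0.0058 with total library size, 0.0013 with that filter and 0.022 with limma-voom. The causes were not tested.

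When each library was left out in turn, 6-library medians ran from -0.054 to 0.040 (sterol enzymes), 0.023 to 0.16 (SREBP regulators), -0.016 to 0.22 (fatty acid enzymes, negative without control replicate 3) and 0.20 to 0.57 (efflux genes), and 5-library medians from 0.0050 to 0.066 (sterol enzymes), 0.00055 to 0.037 (SREBP regulators) and -0.037 to 0.0016 (fatty acid enzymes). The 6-library log2 fold changes that changed sign ran from -0.076 to 0.16 for Hmgcs1, -0.29 to 0.020 for Mvk, -0.031 to 0.12 for Idi1, -0.071 to 0.32 for Fdps, -0.24 to 0.066 for Fdft1, -0.036 to 0.024 for Sqle, -0.28 to 0.12 for Tm7sf2, -0.13 to 0.22 for Msmo1, -0.040 to 0.18 for Hsd17b7, -0.41 to 0.046 for Ebp, -0.029 to 0.13 for Dhcr7, -0.090 to 0.22 for Acly, -0.016 to 0.55 for Acaca, -0.088 to 0.22 for Scd1 and -0.016 to 0.20 for Nr1h2. With 2 or 3 libraries a group and 1 control apart, the edgeR test called 0 genes from all 6. Rbpms itself was not called there (log2 fold change 1.28, adjusted p = 0.0606), so larger changes could be missed as well as small ones.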
